A study of Talaromyces pinophilus with 6 samples.

Results

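Membrane transporters carry nutrients, ions and toxic compounds across the membranes of a fungal cell. The major facilitator superfamily (MFS) moves sugars, acids and other small solutes down or against a gradient, permeases of the amino acid family import amino acids with protons, and ATP-binding cassette (ABC) transporters use ATP, often to pump compounds out of the cell. A filamentous fungus that grows on starch digests the polymer outside the hypha and then depends on such proteins to take up the glucose and maltose that are released, together with nitrogen, phosphate and metals.

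The transporter genes described here are those of Talaromyces pinophilus, a soil fungus that secretes amylases and cellulases. They were chosen by the wording of the annotation in the study's own table of genes changed between the 2 strains: transporter, permease, MFS or transport protein, with neither a transcription factor nor a carbohydrate-active enzyme entry. This gave 55 genes of the 1998 table rows at hand, which stop at gene number TP06007, whereas 11632 genes are listed in at least 1 library. The table was selected on the same contrast and the same libraries as used here, so the differences between the strains given for these genes are a description and carry no test. Of the 55 genes, 47 are listed in the libraries and 8 were not analysed here (TP00625, TP01063, TP01242, TP01569, TP01993, TP03728, TP05165 and TP05764). A filter on low values, an FPKM (fragments per kilobase of gene relative to the library total) of at least 1 in at least 3 libraries, kept 41 and left out 6. A gene can pass that filter through the strain in which it is high, so the 41 do not stand for all 55.

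The mutant ΔTP05746 lacks both TP05746, which encodes a transcription factor, and TpKu70, and the parental strain ΔTpKu70 lacks TpKu70 only. TpKu70 encodes a protein of DNA end joining whose loss eases gene targeting, and both strains were made from strain 1-95, so neither is wild type. Mycelium of each strain grew on glucose, was moved to soluble corn starch (SCS) at 1% (w/v) and was collected 12 h later, and 3 libraries of total RNA were sequenced per strain. Whether a strain's libraries stem from separate cultures is not given in the labels or the methods, so the spread between them may be technical.

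Each library held 4091718 to 4190623 expected counts in ΔTP05746 and 4600785 to 4696455 in ΔTpKu70. TP05746 itself had 0, 0 and 0 counts in ΔTP05746, against 135, 42 and 28 in ΔTpKu70. ΔTpKu70 replicate 1 stood apart. Across genes, the correlation of its log2 expression was 0.693 to 0.714 with ΔTP05746 libraries, where replicates 2 and 3 of ΔTpKu70 reached 0.572 to 0.621, and 0.88 to 0.888 with these 2 replicates, whose own correlation was 0.957. Among the 41 transporter genes tested, its level lay between the other ΔTpKu70 libraries and all ΔTP05746 libraries in 24 (58.5%), against 37.1% of all genes tested and 61.8% of all genes called. The 10 most abundant genes took 7.48% to 8.58% of the counts in ΔTP05746 and 15.2% to 23.0% in ΔTpKu70, and the TMM factors (trimmed mean of M values, which rescale library totals) were 1.31 to 1.37 in ΔTP05746 and 0.667 to 0.877 in ΔTpKu70. Over all genes tested, the median log2 fold change was 0.85 when scaled by library totals, against 0.03 with TMM, so every lower value below is smaller in size, and every higher value larger, on that scale.

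More of the transporter genes were called lower than higher in ΔTP05746 when all 6 libraries were used. A gene was called when edgeR's quasi-likelihood test gave a Benjamini-Hochberg adjusted p of at most 0.05 and a log2 fold change of at least 1 in size. Of the 41 transporter genes, 24 were called lower and 14 higher, and 3 were not called (TP00408, TP01451 and TP02834). Over all 8522 genes tested, 38.7% were called in either direction, 20.5% lower and 18.2% higher. Since the genes were selected on this contrast, nothing is read from the excess. Their median log2 fold change (ΔTP05746 over ΔTpKu70) was -1.36 with TMM and -0.52 with library totals, where 17 were called lower and 14 higher and no sign changed. The surplus of lower calls depended on the libraries and the filter. With the filter applied again, 13 were called lower and 12 higher without ΔTpKu70 replicate 2, and 13 lower and 13 higher without ΔTpKu70 replicate 3, with 31 of the genes tested in each case. Over the same 8522 genes, an alternative added after those counts had been seen, they were 19 lower and 13 higher without replicate 2, and 20 lower and 13 higher without replicate 3. The libraries of the strains did not overlap in 39 of the 41, against 62% of all genes tested. In RNA of whole mycelium, fewer cells of a kind and less RNA per cell cannot be told apart.

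**Figure D1:**
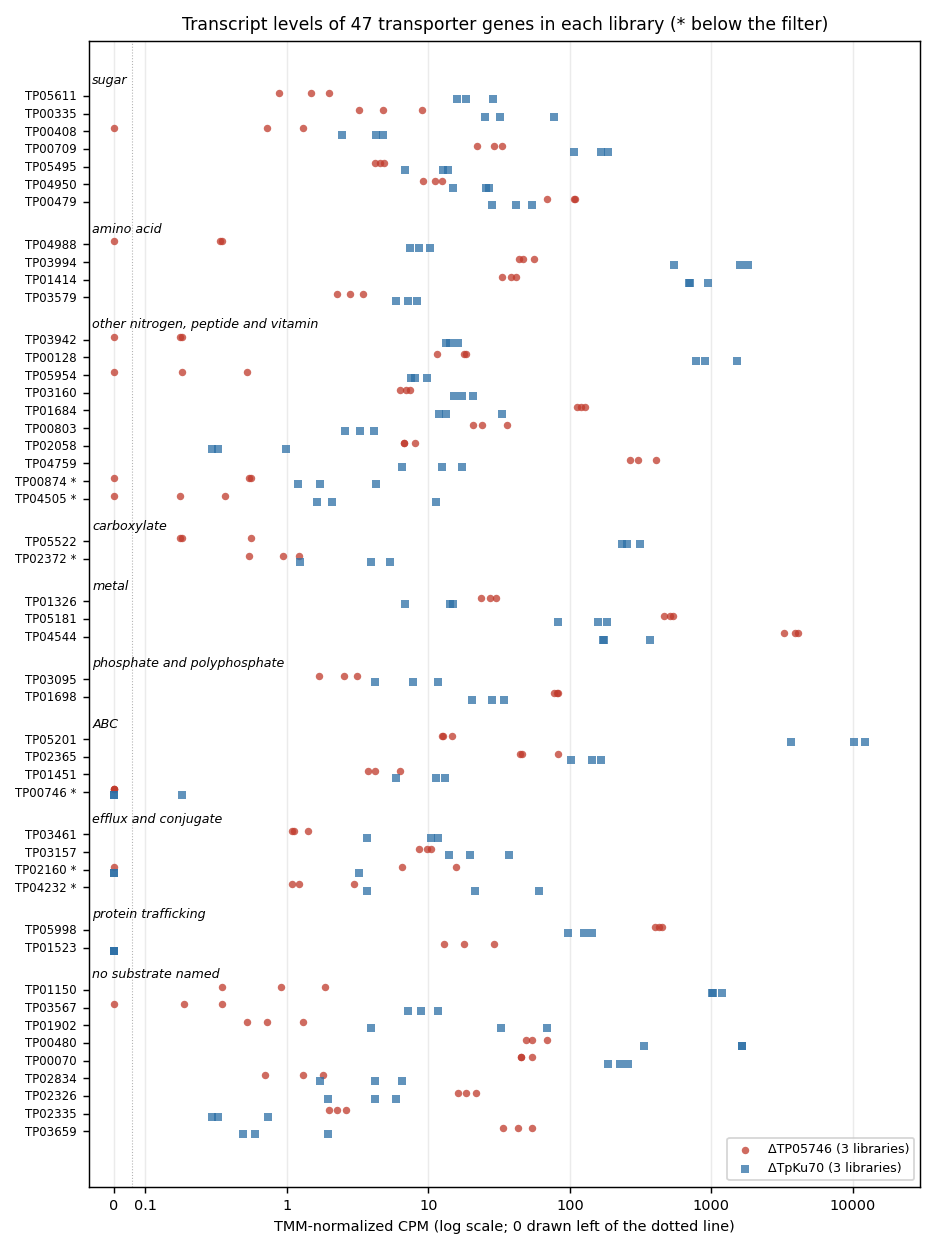
TMM-normalized CPM (counts scaled to a common library total, log axis, with 0 drawn left of the dotted line) of the 47 transporter genes listed in the libraries, grouped by substrate, 1 point per library, with ΔTP05746 as circles and ΔTpKu70 as squares. TP01150, TP05522 and TP05201 lie far lower in ΔTP05746, at log2 fold changes of -9.99, -9.66 and -9.34, and the zinc transporter gene TP04544 is the most abundant in ΔTP05746.

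Sugar transporters import hexoses and the products of starch digestion. Of 7 sugar transporter genes tested, 5 were called lower in ΔTP05746, 1 higher, and 1 was not called, with a median log2 fold change of -2.44. The gene annotated as a glucose transporter, TP00479, was the exception. It had 69.3, 107 and 108 CPM in ΔTP05746, against 28.3, 41.9 and 53.8 CPM in ΔTpKu70 (log2 fold change 1.2, standard error 0.3), so that all 3 mutant libraries lay above all 3 parental ones. Over the same genes, its call was lost without ΔTpKu70 replicate 1 (log2 fold change 0.98) or 2 (1.22) and without ΔTP05746 replicate 2 (1.10) or 3 (1.09).

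A second glucose transporter gene, TP00709, went the other way. It had 33.2, 29.3 and 21.9 CPM in ΔTP05746, against 106, 165 and 186 CPM in ΔTpKu70 (log2 fold change -2.44, standard error 0.283). Per length, TP00479 averaged 55.3 ± 14.3 FPKM in ΔTP05746 and 14.1 ± 2.7 FPKM in ΔTpKu70, and TP00709 averaged 15.2 ± 2.89 FPKM in ΔTP05746 and 48.7 ± 7.56 FPKM in ΔTpKu70 (SD, n = 3 each). The order of these genes by level was therefore opposite in the strains.

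Among the other sugar transporter genes the lowest log2 fold changes belonged to TP05611 and TP00335. TP05611, a sugar transporter gene, had 1.49, 0.873 and 1.99 CPM in ΔTP05746, against 18.4, 28.5 and 16.0 CPM in ΔTpKu70 (log2 fold change -3.83). TP00335, an MFS monosaccharide transporter gene whose counts are partly shared with similar genes, had 3.22, 9.06 and 4.8 CPM in ΔTP05746, against 25.2, 77.2 and 31.9 CPM in ΔTpKu70 (log2 fold change -2.96). Neither gene had overlapping libraries. TP05495 (log2 fold change -1.29) and TP04950 (-1.03) were called with TMM but not with library totals, where they stood at -0.43 and -0.17. Both calls were also lost with the replicate block and when any library but ΔTpKu70 replicate 1 was left out. The call of TP04950 was lost without the filter as well (-0.99). TP04950 had 11.2, 12.4 and 9.22 CPM in ΔTP05746, against 15.0, 26.7 and 25.4 CPM in ΔTpKu70. TP00408 had 1.3, 0 and 0.723 CPM in ΔTP05746, against 2.46, 4.75 and 4.24 CPM in ΔTpKu70, and was not called.

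All 4 amino acid permease genes tested were called lower in ΔTP05746, with a median log2 fold change of -4.57. TP03994, a permease specific for proline, had 55.5, 43.7 and 46.3 CPM in ΔTP05746, against 541, 1605 and 1823 CPM in ΔTpKu70 (log2 fold change -4.77, standard error 0.528). TP01414, a permease for the acidic amino acids, had 33.0, 38.4 and 41.4 CPM in ΔTP05746, against 700, 711 and 943 CPM in ΔTpKu70 (log2 fold change -4.38, standard error 0.255). Both were among the 8 transporter genes with an average of at least 100 FPKM in ΔTpKu70, with 27.4 ± 2.54 FPKM for TP03994 and 20.6 ± 2.86 FPKM for TP01414 in ΔTP05746, against 432 ± 190 and 256 ± 27.7 FPKM in ΔTpKu70 (SD, n = 3 each).

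The other pair of amino acid permease genes was low in both strains. TP04988, a permease for the non-protein amino acid GABA, had 0.348, 0 and 0.338 CPM in ΔTP05746, against 7.46, 10.2 and 8.59 CPM in ΔTpKu70 (log2 fold change -5.01), and part of its counts is shared with similar genes. TP03579 had 2.79, 2.27 and 3.43 CPM in ΔTP05746, against 7.13, 8.31 and 5.87 CPM in ΔTpKu70 (log2 fold change -1.32). TP03579 was no longer called with library totals, at -0.51, or with the replicate block. Over the same genes, its call was also lost without ΔTP05746 replicate 1 or 2 and without ΔTpKu70 replicate 2.

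Genes for the uptake of other nitrogen compounds were split. Of 8 tested, 4 were called lower and 4 higher in ΔTP05746. The lower ones were those for nitrate, peptides, allantoate (a product of purine breakdown) and ammonium. The nitrate transporter gene TP03942 had 0, 0.175 and 0.181 CPM in ΔTP05746, against 16.2, 14.2 and 13.4 CPM in ΔTpKu70 (log2 fold change -6.63, standard error 0.568). The peptide transporter gene TP00128 had 17.7, 11.5 and 18.4 CPM in ΔTP05746, against 1511, 900 and 783 CPM in ΔTpKu70 (log2 fold change -6.06, standard error 0.417). Here ΔTpKu70 replicate 1 was the highest library, not an intermediate one. The allantoate transporter gene TP05954 stood at a log2 fold change of -4.99 and the ammonium transporter gene TP03160 at -1.36, which became -0.52 and lost its call with library totals.

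The higher ones were both polyamine transporter genes, an ammonium permease gene and an oligopeptide transporter gene. Polyamine transporters move small polycations such as spermidine. TP04759 had 403, 265 and 303 CPM in ΔTP05746, against 17.2, 12.5 and 6.52 CPM in ΔTpKu70 (log2 fold change 4.73, standard error 0.408). TP00803, the other polyamine transporter gene, stood at a log2 fold change of 2.98, with part of its counts shared with similar genes. The oligopeptide transporter gene TP02058 had 6.71, 8.04 and 6.69 CPM in ΔTP05746, against 0.983, 0.297 and 0.326 CPM in ΔTpKu70 (log2 fold change 3.61, standard error 0.494).

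The pair of genes for ammonium uptake differed in direction. The ammonium permease gene TP01684 had 120, 112 and 127 CPM in ΔTP05746, against 33.2, 11.9 and 13.4 CPM in ΔTpKu70 (log2 fold change 2.61), whereas TP03160 had 7.45, 6.99 and 6.33 CPM in ΔTP05746, against 15.2, 20.8 and 17.3 CPM in ΔTpKu70. Per length, TP01684 averaged 65.1 ± 3.88 FPKM in ΔTP05746 and 6.73 ± 5.03 FPKM in ΔTpKu70, and TP03160 averaged 4.78 ± 0.33 FPKM in ΔTP05746 and 7.35 ± 0.94 FPKM in ΔTpKu70 (SD, n = 3 each). A choline transport gene and a nicotinic acid transporter gene fell below the filter. TP04505, for choline, had 0, 1 and 2 counts in ΔTP05746 and 46, 7 and 5 in ΔTpKu70, and TP00874, for nicotinic acid, had 3, 0 and 3 counts in ΔTP05746 and 7, 4 and 13 in ΔTpKu70.

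All 3 metal transporter genes tested were called higher in ΔTP05746, with log2 fold changes of 1.16 to 3.98. TP04544, a high-affinity zinc transporter gene, had 4096, 3255 and 3888 CPM in ΔTP05746, against 174, 369 and 170 CPM in ΔTpKu70 (log2 fold change 3.98, standard error 0.432). High-affinity zinc transporters import zinc when it is scarce. By FPKM the gene ranked 12 of 8522 in ΔTP05746 and 744 in ΔTpKu70, with 3444 ± 291 FPKM in ΔTP05746 and 131 ± 58.9 FPKM in ΔTpKu70 (SD, n = 3 each).

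The other metal transporter genes are named for iron. TP05181, an iron-regulated transporter gene, had 539, 464 and 507 CPM in ΔTP05746, against 82.1, 158 and 184 CPM in ΔTpKu70 (log2 fold change 1.83, standard error 0.328). TP01326 encodes Ccc1, which in yeast carries iron into the vacuole. It had 29.8, 23.4 and 27.3 CPM in ΔTP05746, against 14.3, 14.8 and 6.84 CPM in ΔTpKu70 (log2 fold change 1.16, standard error 0.34). Its call was lost with the replicate block (1.22). It was also lost without ΔTpKu70 replicate 3 (0.87 over the same genes) and without each of the ΔTP05746 libraries (1.08 to 1.25). Without ΔTpKu70 replicate 2 the call was lost with the filter applied again (1.3) but kept over the same genes (1.34).

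Among the ABC transporter genes 1 gene dominated. TP05201 had 14.7, 12.6 and 12.5 CPM in ΔTP05746, against 3663, 12131 and 10100 CPM in ΔTpKu70 (log2 fold change -9.34, standard error 0.685). It averaged 2.65 ± 0.183 FPKM in ΔTP05746 and 1001 ± 455 FPKM in ΔTpKu70 (SD, n = 3 each), ranking 7152 in ΔTP05746 and 94 in ΔTpKu70, the highest average of the transporter genes in the parental strain. ΔTpKu70 replicate 1 was at less than the other parental libraries and far above the mutant ones.

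The other ABC genes differed less. TP02365 had 44.7, 45.6 and 82.3 CPM in ΔTP05746, against 167, 101 and 144 CPM in ΔTpKu70 (log2 fold change -1.25, and -0.45 and not called with library totals). Its call was also lost without ΔTP05746 replicate 1 or 2. TP01451, a multidrug transporter gene, had 3.73, 6.29 and 4.16 CPM in ΔTP05746, against 5.9, 11.3 and 13.0 CPM in ΔTpKu70, so the libraries overlapped. TP00746 was below the filter, with 0 counts in every ΔTP05746 library and 0, 0.61 and 0 counts in ΔTpKu70.

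**Figure D2:**
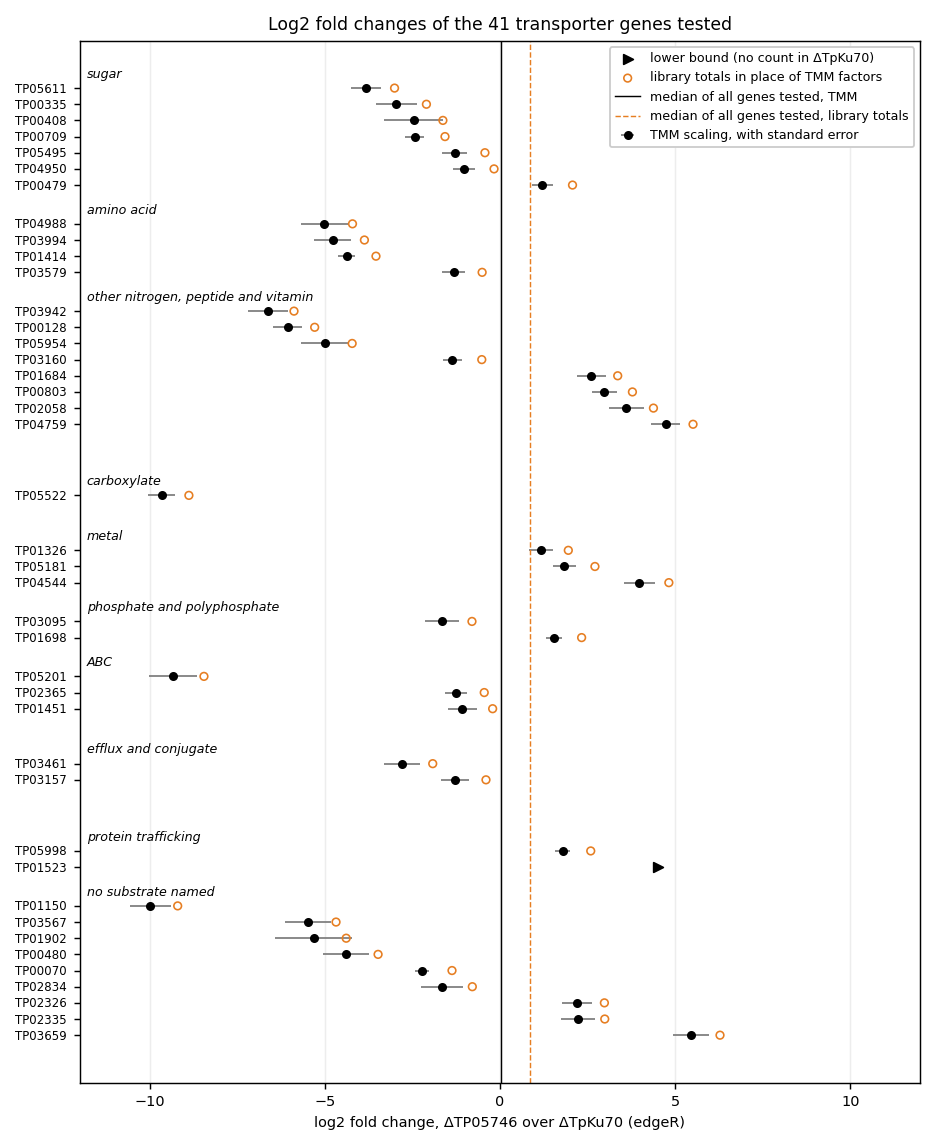
Log2 fold change (ΔTP05746 over ΔTpKu70, x axis) of the 41 transporter genes tested, grouped by substrate, with TMM scaling (filled points, bars are the standard error) and with library totals (open circles), and vertical lines at the median of all genes tested. TP01523 is drawn at its lower bound, and the open circles lie to the right of the filled points throughout, with no gene changing sign.

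Carboxylate permeases import monocarboxylic acids. TP05522 had 0.559, 0.175 and 0.181 CPM in ΔTP05746, against 311, 235 and 253 CPM in ΔTpKu70 (log2 fold change -9.66, standard error 0.397). The ΔTP05746 libraries were thus near 0. TP02372, also annotated as a monocarboxylate permease, was below the filter with 5, 7 and 3 counts in ΔTP05746 and 5, 18 and 12 counts in ΔTpKu70.

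For phosphate, the pair of genes tested differed in direction. TP01698, a subunit of the vacuolar transporter chaperone complex that in yeast makes polyphosphate, had 82.9, 76.7 and 81.3 CPM in ΔTP05746, against 34.2, 28.2 and 20.2 CPM in ΔTpKu70 (log2 fold change 1.54, standard error 0.227). The high-affinity phosphate transporter gene TP03095 had 1.68, 3.14 and 2.53 CPM in ΔTP05746, against 4.18, 11.6 and 7.82 CPM in ΔTpKu70 (log2 fold change -1.66, and -0.8 and not called with library totals). Its call was also lost when any library but ΔTpKu70 replicate 1 was left out.

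Efflux transporters export drugs and toxins. Genes were placed here or with the ABC genes by the wording of the annotation alone, so a gene here may also be of the ABC kind. The multidrug transporter gene TP03461 had 1.12, 1.4 and 1.08 CPM in ΔTP05746, against 3.69, 10.4 and 11.7 CPM in ΔTpKu70 (log2 fold change -2.80). TP03157, named for the efflux of leptomycin, had 8.57, 10.5 and 9.76 CPM in ΔTP05746, against 14.0, 19.6 and 36.8 CPM in ΔTpKu70 (log2 fold change -1.28, and -0.4 and not called with library totals). Its call was also lost with the replicate block and when any library but ΔTpKu70 replicate 1 was left out. Below the filter lay a gene named for brefeldin A efflux and a vacuolar glutathione conjugate transporter gene. TP04232, for brefeldin A, had 16, 7 and 6 counts in ΔTP05746 and 15, 205 and 65 counts in ΔTpKu70. TP02160, for glutathione conjugates, had 34.87, 0 and 87.02 counts in ΔTP05746 and 13.18, 0 and 0 counts in ΔTpKu70, so its libraries overlapped.

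The words of the rule also took in genes of protein trafficking, which are not solute transporters. TP05998, a protein transporter gene, had 425, 398 and 445 CPM in ΔTP05746, against 144, 126 and 97.1 CPM in ΔTpKu70 (log2 fold change 1.79, standard error 0.218). TP01523 is annotated as Get1, which in yeast helps to insert tail-anchored proteins into the endoplasmic reticulum. It had 29.1, 12.9 and 17.9 CPM in ΔTP05746, against 0, 0 and 0 CPM in ΔTpKu70, at least 23.0-fold higher in ΔTP05746 taking 3 counts per library as the floor. Part of its counts is shared with similar genes, so the 0 in ΔTpKu70 may depend on how the reads were divided, which was not tested.

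Of 9 tested genes for which no substrate is named, most of them MFS genes, 5 were called lower and 3 higher in ΔTP05746, and 1 was not called. TP01150 had 1.86, 0.349 and 0.904 CPM in ΔTP05746, against 1197, 1011 and 1028 CPM in ΔTpKu70 (log2 fold change -9.99, standard error 0.585), the lowest log2 fold change of the 41. TP00480 had 53.6, 49.3 and 69.4 CPM in ΔTP05746, against 333, 1646 and 1646 CPM in ΔTpKu70 (log2 fold change -4.39, standard error 0.66). TP00480 carries the number after the glucose transporter gene TP00479, which was higher in ΔTP05746.

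The MFS genes TP03659 and TP03567 lay at opposite ends. TP03659 had 54.2, 33.9 and 42.7 CPM in ΔTP05746, against 0.492, 0.594 and 1.96 CPM in ΔTpKu70 (log2 fold change 5.45, standard error 0.516). TP03567 had 0.186, 0.349 and 0 CPM in ΔTP05746, against 8.85, 7.12 and 11.7 CPM in ΔTpKu70 (log2 fold change -5.48, standard error 0.664). TP02335 had 2.24, 2.62 and 1.99 CPM in ΔTP05746, against 0.737, 0.297 and 0.326 CPM in ΔTpKu70 (log2 fold change 2.22). TP02326 stood at a log2 fold change of 2.20, TP00070 at -2.22 and TP01902 at -5.32, where the ΔTpKu70 libraries ranged from 3.93 to 68.8 CPM. TP02834, with 1.3, 0.699 and 1.81 CPM in ΔTP05746 and 1.72, 4.16 and 6.52 CPM in ΔTpKu70, overlapped and was not called.

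Summed over the 47 genes, the transporter genes took 0.822%, 0.703% and 0.8% of the counts in the ΔTP05746 libraries, against 0.828%, 1.43% and 1.2% in the ΔTpKu70 libraries. The libraries did not overlap, but ΔTpKu70 replicate 1 lay only just above the highest ΔTP05746 library. Different genes made up the sums: metal transporter genes held 0.57 ± 0.0526% of the counts in ΔTP05746 and 0.0289 ± 0.00865% in ΔTpKu70, whereas genes annotated as ABC held 0.0101 ± 0.00267% in ΔTP05746 and 0.633 ± 0.274% in ΔTpKu70 (SD, n = 3 each). Without TP05201 the order turned round on this scale, at 0.773 ± 0.0629% in ΔTP05746 and 0.531 ± 0.0245% in ΔTpKu70. These shares are of library totals, without TMM factors. On that scale the median log2 fold change over all genes tested was 0.85, so the turn is not read as a rise of these genes. Without TP05201 and TP04544 the remaining 45 genes held 0.273 ± 0.0144% in ΔTP05746 and 0.513 ± 0.0195% in ΔTpKu70.

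**Figure D3:**
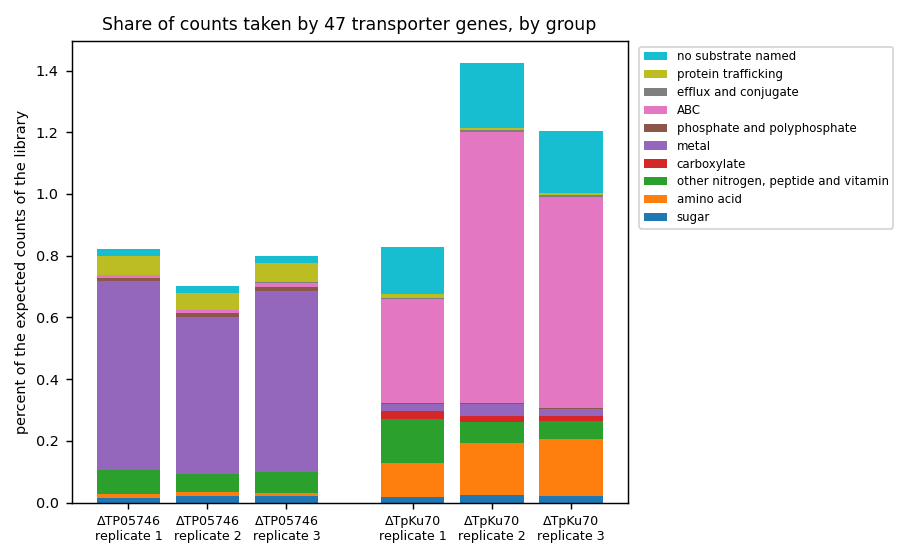
Percent of each library's expected counts (y axis, stacked) taken by the 47 transporter genes, by substrate group, with the 3 ΔTP05746 libraries left of the 3 ΔTpKu70 libraries. Metal transporter genes fill most of the ΔTP05746 bars and ABC transporter genes are the largest block of the ΔTpKu70 bars.

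In level, the 41 genes were modest for most and high for a few. Their median FPKM was 4.78 in ΔTP05746 and 6.73 in ΔTpKu70, against medians of 19.1 in ΔTP05746 and 11.7 in ΔTpKu70 over all genes tested. At least 100 FPKM was reached by 4 of them in ΔTP05746 (TP04544, TP05181, TP05998 and TP04759) and by 8 in ΔTpKu70, among them TP05201, TP03994, TP00480 and TP01150. The zinc transporter gene TP04544 was the gene of both lists. The median SD of log2(CPM + 0.5) between libraries was 0.255 in ΔTP05746 and 0.461 in ΔTpKu70 for these genes, close to 0.23 and 0.418 over all genes tested. Of the 41, 29 varied more in ΔTpKu70, as did 71.4% of all genes tested.

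The study's table, which chose the genes, asked for a log2 ratio of FPKM of at least 1 in size and a p-value not described as adjusted. The edgeR call used here has a threshold of the same size, but on TMM-scaled counts and with an adjusted p. The called transporter genes nearest to it were TP01326, at 26.8 ± 3.22 CPM in ΔTP05746 and 12.0 ± 4.46 CPM in ΔTpKu70, and TP04950, at 10.9 ± 1.61 CPM in ΔTP05746 and 22.4 ± 6.43 CPM in ΔTpKu70. Of the tested genes numbered up to TP06007 that are not in the study's table, those just outside it had log2 fold changes of 0.996 (TP02495, with 78.1 ± 7.7 CPM in ΔTP05746 and 39.1 ± 5.87 CPM in ΔTpKu70) and -0.995 (TP01430, with 1.37 ± 0.636 CPM in ΔTP05746 and 2.82 ± 1.6 CPM in ΔTpKu70; SD, n = 3 each). On the deposited FPKM, without rescaling, 9 of the 45 transporter genes with an FPKM in both strains had a log2 ratio of mean FPKM under 1 in size, and the smallest was 0.27 in size. These 9 lie under the study's stated minimum, and why they are in its table was not tested.

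Genes numbered directly next to a transporter gene were often called in its direction. Of 61 tested genes numbered directly before or after a transporter gene, 25 were called in the direction of that gene and 7 in the opposite direction. Beside genes with a positive log2 fold change 10 of 23 neighbours (43.5%) were called higher, where 18.2% of all genes tested were, and beside genes with a negative one 15 of 38 (39.5%) were called lower, where 20.5% were. Within 2 numbers, direct neighbours included, the shares were smaller, at 13 of 42 (31%) called higher and 22 of 68 (32.4%) called lower. With 1 library left out, 17 to 23 direct neighbours were called in the transporter gene's direction when the filter was applied again. With the 8522 genes kept, 18 to 26 were. These neighbours come from the same contrast as the transporter genes and many share the study's table, so the counts are a description. Whether number order follows position on the chromosomes is not stated in the sources used here.

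The monocarboxylate permease gene TP05522 had the lowest neighbours. TP05523, annotated as 2,4-dichlorophenol 6-monooxygenase, an enzyme that hydroxylates aromatic rings, had 0.373, 1.05 and 0.181 CPM in ΔTP05746, against 256, 417 and 389 CPM in ΔTpKu70 (log2 fold change -9.29, standard error 0.546). TP05521, of unknown function and with shared counts, had 3.76, 2.7 and 4.64 CPM in ΔTP05746, against 414, 450 and 378 CPM in ΔTpKu70 (log2 fold change -6.81). All 3 consecutive genes were thus at most at 4.64 CPM in ΔTP05746 and at least at 235 CPM in ΔTpKu70. TP00407, next to the sugar transporter gene TP00408 and of unknown function, had 43.2, 37.4 and 45.4 CPM in ΔTP05746, against 2109, 1928 and 2340 CPM in ΔTpKu70 (log2 fold change -5.66).

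On the higher side, TP04758, an integral membrane protein gene next to the polyamine transporter gene TP04759, had 87.5, 73.2 and 81.3 CPM in ΔTP05746, against 6.39, 3.86 and 0.652 CPM in ΔTpKu70 (log2 fold change 4.42). TP03658, of unknown function and next to TP03659, had 101, 119 and 101 CPM in ΔTP05746, against 5.9, 4.75 and 9.78 CPM in ΔTpKu70 (log2 fold change 3.98). In the opposite direction to its neighbour, TP00071 had 59.6, 33.7 and 40.8 CPM in ΔTP05746, against 0, 8.18 and 4.12 CPM in ΔTpKu70 (log2 fold change 3.44, with shared counts), next to TP00070 at -2.22. Chosen after its values were seen, TP03943 is a nitrite reductase gene next to the nitrate transporter gene TP03942. Nitrite reductase acts downstream of nitrate uptake, and TP03943 stood at a log2 fold change of 1.52, with 5.22, 9.78 and 5.42 CPM in ΔTP05746, against 1.23, 2.67 and 3.26 CPM in ΔTpKu70.

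**Figure D4:**
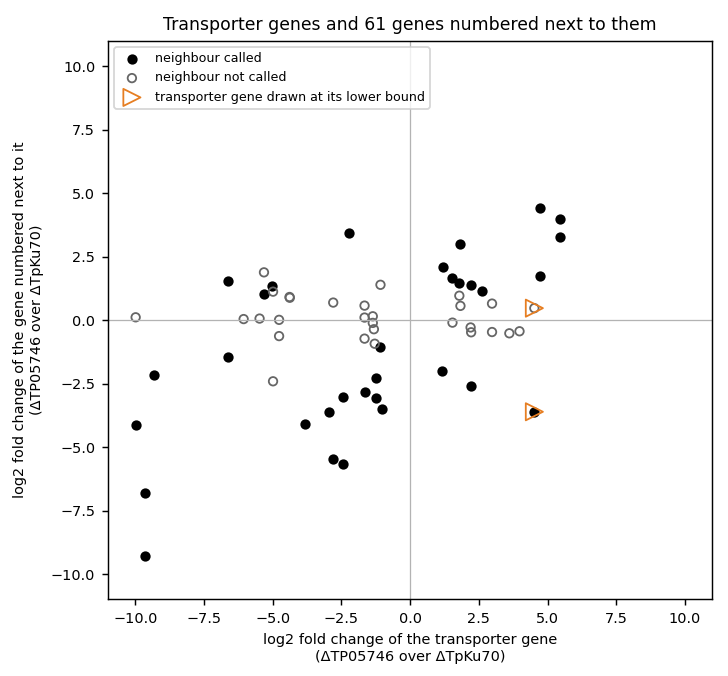
Log2 fold change (ΔTP05746 over ΔTpKu70) of each transporter gene (x axis) and of the genes numbered next to it (y axis), 61 neighbours in all, filled where the neighbour was called. Of the called neighbours 25 lie in the quadrants of equal sign and 7 in the others, and the triangles mark TP01523, drawn at its lower bound.

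A further 14 genes of the same table encode transport proteins that the words or columns of the rule left out: ATPases, antiporters, symporters, channels and pumps, and 1 MFS gene with a transcription factor entry. They were also selected on this contrast. Of 13 tested, 9 were called lower and 2 higher in ΔTP05746, with a median log2 fold change of -1.92. Over all genes tested, 20.5% were called lower and 18.2% higher. With library totals 7 were called lower and 3 higher, with a median of -1.09. The log2 fold changes ran from -5.75 (the MFS gene TP05090) to 3.75 (TP03293, an efflux pump gene with shared counts). The xenobiotic-transporting ATPase gene TP00712, a drug pump of the ABC kind with shared counts, had 22.2, 58.6 and 54.1 CPM in ΔTP05746, against 586, 2394 and 1682 CPM in ΔTpKu70 (log2 fold change -5.11). The porin gene TP01504, whose product forms the main channel of the outer mitochondrial membrane, had 1156, 1458 and 1346 CPM in ΔTP05746, against 839, 380 and 242 CPM in ΔTpKu70 (log2 fold change 1.44).

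Genes that carry maltose and trehalose, which are both made of glucose units, were among them. TP04935, an α-glucoside and proton symporter gene, had 5.96, 2.97 and 3.8 CPM in ΔTP05746, against 8.36, 7.12 and 9.12 CPM in ΔTpKu70 (log2 fold change -0.95), and was not called. The trehalose transport-related gene TP05121 had 1.49, 2.8 and 1.27 CPM in ΔTP05746, against 4.18, 118 and 37.5 CPM in ΔTpKu70 (log2 fold change -4.81, standard error 1.17), so its ΔTpKu70 libraries spanned a wide range. The other trehalose-related gene, TP04926, stood at a log2 fold change of -1.74, and at -0.87 and not called with library totals.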

How the data were processed

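RNA of 6 mycelium libraries, 3 of ΔTP05746 and 3 of ΔTpKu70, was sequenced on an Illumina HiSeq. The authors deposited, for each library, expected counts per gene and FPKM; RSEM 1.2.12, Bowtie2 2.1.0, BWA 0.7.10-r789 and DESeq2 are listed, without roles, in the submitters' processing notes. The deposited FPKM values are relative to gene length and library total. RSEM divides reads shared by similar genes, so counts with decimals mark shared reads (2326 of 11632 genes listed). A gene without a row in a library was taken as 0 there if listed in another.

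Expected counts were rounded and tested with edgeR 4.0.16 (R 4.3.3; TMM, quasi-likelihood test, ΔTP05746 against ΔTpKu70, Benjamini-Hochberg over 8522 genes), and standard errors were derived from the F statistic, which is rough near 0 counts. CPM are TMM-normalized. Alternatives were library totals, median-ratio size factors, DESeq2 1.42.0, limma 3.58.1 on log2(FPKM + 1) and log2(FPKM + 0.1), other filters, no genes with decimals, the replicate block and each library left out. When a library was left out the filter was applied again to the remaining 5 libraries; a second version that kept the 8522 genes was added after the counts of the first had been seen. The scripts were tested on simulated data.

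The transporter genes and lists were chosen with earlier results of these data known. In each substrate group, values per library are given for the gene with the highest mean FPKM in either strain. They are also given for the 2 highest and 2 lowest log2 fold changes. The same holds for genes that overlap, were not tested, or have decimals and 0 throughout a strain. Further, they are given for TP05746 and the neighbours with the 3 highest and 3 lowest log2 fold changes. Only some of the related transport proteins have values per library, and these were picked by no stated rule. Genes beside the threshold that are not transporter genes have the mean and SD only. Libraries sharing a number were checked for pairing by the correlation of their deviations from the strain means.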

Additional observations from a re-analysis of the deposited data

How the results depend on the processing

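Of 800 comparisons of a transporter gene's log2 fold change with an alternative, none changed sign, 697 stayed on the same side of the call, whether called or not, 93 lost a call and 10 gained one. Of the 41 genes, 29 stayed called under every alternative run in which the gene was tested; the exceptions were TP00408, TP00479, TP01326, TP01451, TP02365, TP02834, TP03095, TP03157, TP03160, TP03579, TP04950 and TP05495. With the filter raised to 5 FPKM 14 genes were called lower and 12 higher, with 26 of the genes tested. Leaving out 1 library and applying the filter again tested 31 to 37 of the genes and called 8 to 13 higher and 13 to 20 lower. A gene that reached the filter only in the strain that lost a library could no longer be tested. Without a ΔTP05746 library the lower calls were 18, 18 and 20 with either version. The higher calls were then 9, 8 and 8 with the filter applied again, and 13, 12 and 12 with the 8522 genes kept. What lies behind the fall in lower calls was not tested. Keeping the 8522 genes, a version added after those counts had been seen, gave 12 to 13 higher and 18 to 27 lower, the 27 without ΔTpKu70 replicate 1, where TP00408, TP01451 and TP02834 were called lower and TP00479 lost its call. The summed share of counts, without the most abundant transporter gene of each strain, was 0.273% in ΔTP05746 and 0.513% in ΔTpKu70. Same-numbered libraries did not deviate together (correlations -0.0783, -0.0379 and 0.0111), and only replicate 3 matched its own number best. With 3 libraries per strain, this check cannot exclude that the numbers pair them. With the replicate block 2892 genes were called, 13 transporter genes higher and 20 lower. Near 0 counts the fold changes are imprecise.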
